A study of Mus musculus with 4 samples.

Results

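Slc5a7 and 9 other genes of choline handling were followed in white adipose tissue of mice fed either of 2 diets, high in fat (HFD) or low in fat (LFD). The 10 genes were chosen by name, as array probes that are not controls and whose gene name in the scanner output is Slc5a7, Slc44a1, Slc44a2, Chka, Chkb, Pcyt1a, Pemt, Chpt1, Chdh or Chat. They are 10 of the 27376 gene names on the array and are read by 22 of its 41174 probes. Slc5a7 itself was chosen on its difference between the diets, so its values are given as a description with no test. The other 9 were chosen by function, with earlier results of these data known.

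Choline enters cells through several carriers. Slc5a7 encodes the high-affinity, sodium-driven choline transporter that nerve endings use to supply acetylcholine synthesis, while Slc44a1 and Slc44a2 encode transporter-like proteins of wide expression. Inside the cell choline is phosphorylated by the choline kinases (Chka and Chkb), activated to CDP-choline by Pcyt1a and joined to diacylglycerol by the cholinephosphotransferase Chpt1, which yields phosphatidylcholine, the main phospholipid of membranes and of the lipid droplet surface in fat cells. Pemt makes phosphatidylcholine by another route, from phosphatidylethanolamine, Chat makes acetylcholine, and Chdh oxidises choline in mitochondria on the way to betaine.

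Both diets were fed to female C57BL/6 mice, an inbred laboratory strain, for 18 weeks from 8 weeks of age; the HFD was High fat diet 32 and the LFD was CE2. RNA was hybridised to 4 one-colour whole mouse genome arrays, 2 per diet, on which the brightness of a spot stands for the level of 1 transcript. Each sample was tissue mixed from 3 mice, the labels name no depot, and the sources used here do not state whether the 2 arrays of a diet hold RNA of 1 pool or of different pools, so the p-values reflect variation between samples that may be technical. Tissue RNA was measured in bulk, and fewer cells of a type and less RNA per cell cannot be told apart.

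The arrays held between 21312 and 27937 probes well above background, with the fewest on HFD replicate 2, which also had the brightest negative control spots (116 against 73.9 to 106.3 on the others). Of the tissue's defining genes, 10 of 10 adipocyte markers were measured, and their summed signal, relative to each array's 75th percentile, was 1375 and 1495 on LFD and 1291 and 1394 on HFD. Across all 26054 probes tested, 1415 (5.43%) were called higher on HFD and 1373 (5.27%) lower, at an adjusted p under 0.05 in limma. With 1 probe per gene, the brightest, 1019 of 17736 genes (5.75%) were higher and 995 (5.61%) lower, and the median difference of all genes was 0.021. Levels are given below as log2 signal relative to the 75th percentile of the same array, and differences as HFD minus LFD on that log2 scale.

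Sequences are shown for a probe each of Chpt1, Pcyt1a and Chat, in the sense of the transcript and 5′ to 3′, from the deposited scanner files. No letter is marked. The Chpt1 probe is the brightest of the 3 for that gene and the one with the largest difference. The Pcyt1a and Chat probes each cover an exon junction, since their 60 bases span 2890 and 774 bases of the genome, and so read spliced RNA.
Chpt1 probe A_52_P655803, mm9 chr10:87951131-87951190, minus strand: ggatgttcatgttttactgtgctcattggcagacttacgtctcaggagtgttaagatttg
Pcyt1a probe A_51_P294705, mm9 chr16:32467268-32470157, plus strand: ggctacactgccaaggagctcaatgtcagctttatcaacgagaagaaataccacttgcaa
Chat probe A_51_P285243, mm9 chr14:33266987-33267760, minus strand: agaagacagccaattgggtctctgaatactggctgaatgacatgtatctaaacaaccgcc

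The single Slc5a7 probe (A_52_P128180, mm9 chr17:54413771-54413830, minus strand) was at background on both LFD arrays and bright on both HFD arrays. Its processed signal was 7.72 and 8.50 on LFD and 2228 and 1456 on HFD. Before background subtraction the spot read 74.7 and 102.5 on LFD, close to the 73.9 and 95.6 of the negative control spots on the same arrays, and 2464 and 1679 on HFD. The diets did not overlap. On the log2 scale the levels were -6.75 and -6.65 on LFD and 1.38 and 0.90 on HFD, with means of -6.70 ± 0.071 and 1.14 ± 0.34 (SD, n = 2 each), and a difference of 7.84. Because the probe was not well above background on LFD, the fold is a bound: with the lowest signal well above background standing in for the LFD level, Slc5a7 was at least 52.5-fold higher on HFD. This bound holds for the processed signals only, since background correction by normexp with an offset of 50 gave a difference of 4.45.

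**Figure D1:**
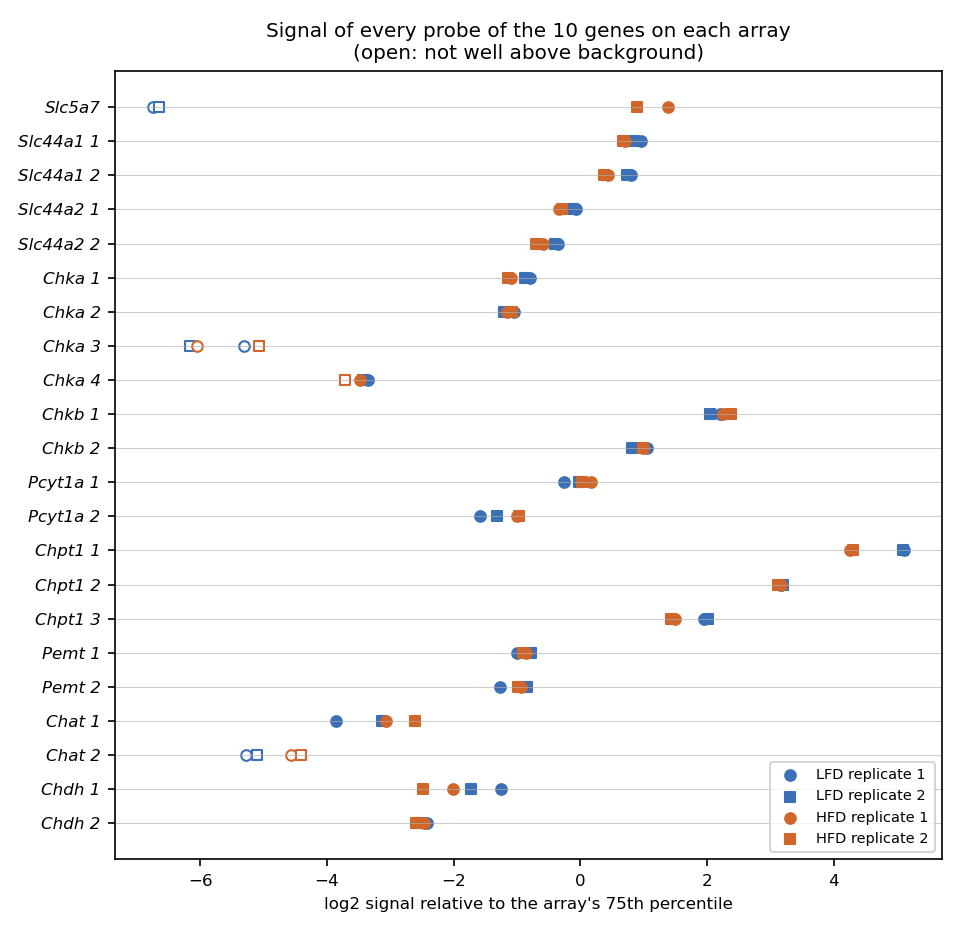
Log2 signal over the 75th percentile of the array (x axis) for all 22 probes of the 10 genes (y axis, numbered within a gene from its brightest tested probe), with 1 point per array, LFD in blue and HFD in orange. Open points were not well above background. The Slc5a7 points lie at -6.75 and -6.65 on LFD and at 1.38 and 0.90 on HFD, while the points of most other probes lie close together.

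The median signal of the spots around the Slc5a7 probe did not share its pattern. The local background around it was 29 to 32 on the 4 arrays, and the 22 probes within 2 rows and 2 columns had medians of -2.12 and -1.97 on LFD and -2.23 and -2.40 on HFD. None of these neighbours was called higher on HFD, beside 5.43% of all tested probes. Neighbours that were not tested count as not called, and with so few spots this count is a description only. The longest run of bases that the probe shares with any other probe on the array is 13, found in 2 probes, and the first of these, for the thioredoxin reductase Txnrd2, had a difference of -0.069. Only probe sequences were compared, not whole transcripts, so binding of other transcripts to the Slc5a7 probe was not tested.

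Among 21291 probes well above background on both HFD arrays, likeness to the Slc5a7 pattern was measured over the 4 arrays as the root mean square difference between probes, each centred on its own mean. The 5 nearest genes were Tph2, the tryptophan hydroxylase of neuronal serotonin synthesis (0.80), the ubiquitin-like modifier Ubd (1.24), the interleukin 13 decoy receptor Il13ra2 (1.33), the calcium-binding protein gene Pvalb (1.60) and the chemokine gene Cxcl1 (1.67). Tph2 read -6.92 and -6.82 on LFD and 2.75 and 2.38 on HFD. Il13ra2 read -6.36 and -6.32 on LFD and -1.17 and -1.11 on HFD. Ubd was well above background in both diets, at 0.61 and -0.56 on LFD and 5.62 and 5.52 on HFD. Of these 5 genes, Ubd was the one with a measured level on LFD. The others, like Slc5a7, were not well above background there, so the distances rest on readings at background. With 2 arrays per diet the distance also follows mainly the size of the rise, the value on which Slc5a7 was chosen. Tph2, Ubd, Il13ra2 and Pvalb had, with Slc5a7, the 5 largest rises of all tested probes. The distances are therefore a description only.

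**Figure D2:**
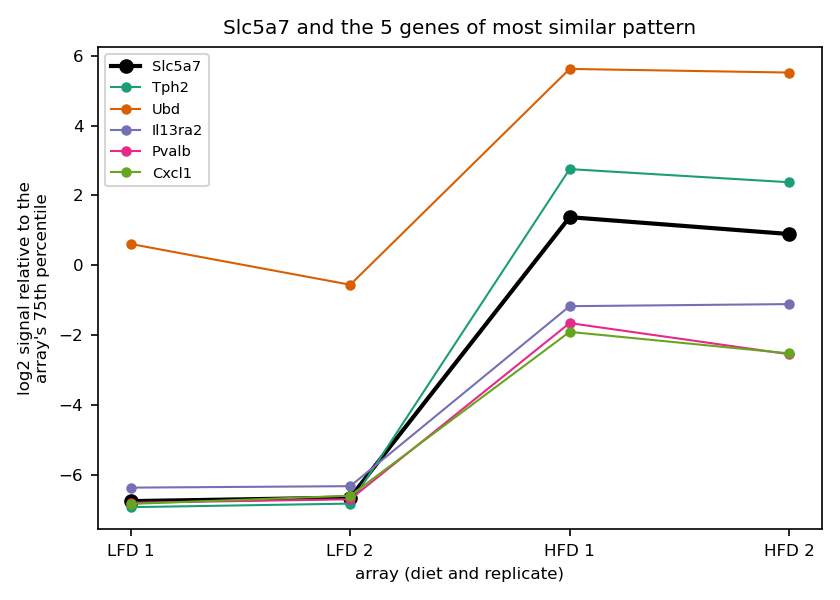
Log2 signal over the 75th percentile of the array (y axis) on each of the 4 arrays (x axis) for Slc5a7 (black) and the 5 genes nearest to it in pattern. Lines join the readings of 1 probe; Slc5a7, Tph2, Il13ra2, Pvalb and Cxcl1 start below -6 on LFD, and Ubd starts near 0.

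The 250 bases before the Slc5a7 start, in the RefSeq promoter table (GRCm38.p6), are shown as context for the gene with the largest difference of the 10. Capitals mark matches, on either strand, to the TATA box (TATAAA), the CCAAT box, the GC box (GGGCGG), the E-box (CANNTG), the cAMP response element (TGACGTCA) and the AP-1 site (TGANTCA).
Slc5a7, GRCm38.p6 chr17:54299035-54299284, minus strand: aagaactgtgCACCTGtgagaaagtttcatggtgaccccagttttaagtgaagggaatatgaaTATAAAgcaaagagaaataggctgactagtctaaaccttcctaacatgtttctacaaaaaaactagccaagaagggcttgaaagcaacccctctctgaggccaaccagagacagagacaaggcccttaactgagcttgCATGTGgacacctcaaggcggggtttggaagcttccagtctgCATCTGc
This window held 1 TATA box match, 187 bases before the start, and 3 E-box matches. Of all 32851 promoter windows of the same length, 12.4% held a TATA box, 66.2% an E-box, 33.8% a CCAAT box, 32.7% a GC box, 1.55% a cAMP response element and 6.75% an AP-1 site by these letters. The Slc5a7 window was 45.6% G and C with 1 CpG, against a median of 52.4% and 6 CpG over all windows. Of all windows, 27.1% had that share of G and C or less, and 18.8% had that CpG count or less. The GC box letters were present in 9 of the 17 windows listed for the 10 genes, among them those of Chpt1, Chka and Chkb and 2 of the 3 of Pcyt1a. A match describes letters, and these arrays measured nothing at the promoters.

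Of the 9 other genes, Chpt1 was called lower on HFD and none was called higher, which is 11.1% lower beside 5.61% of all genes and 0% higher beside 5.75%. On 8 of the 9, the diets were separated, with the HFD arrays both above or both below the LFD pair, as 68.9% of all tested genes were. Differences ran down in 5 and up in 4 (Pemt, among the latter, turned down with median scaling), with a median of -0.21. At an unadjusted p under 0.05 in limma, 3 were lower (Chpt1, Chka and Chdh) and 0 higher, a share near the 34.9% of all tested genes past that level in either direction.

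**Figure D3:**
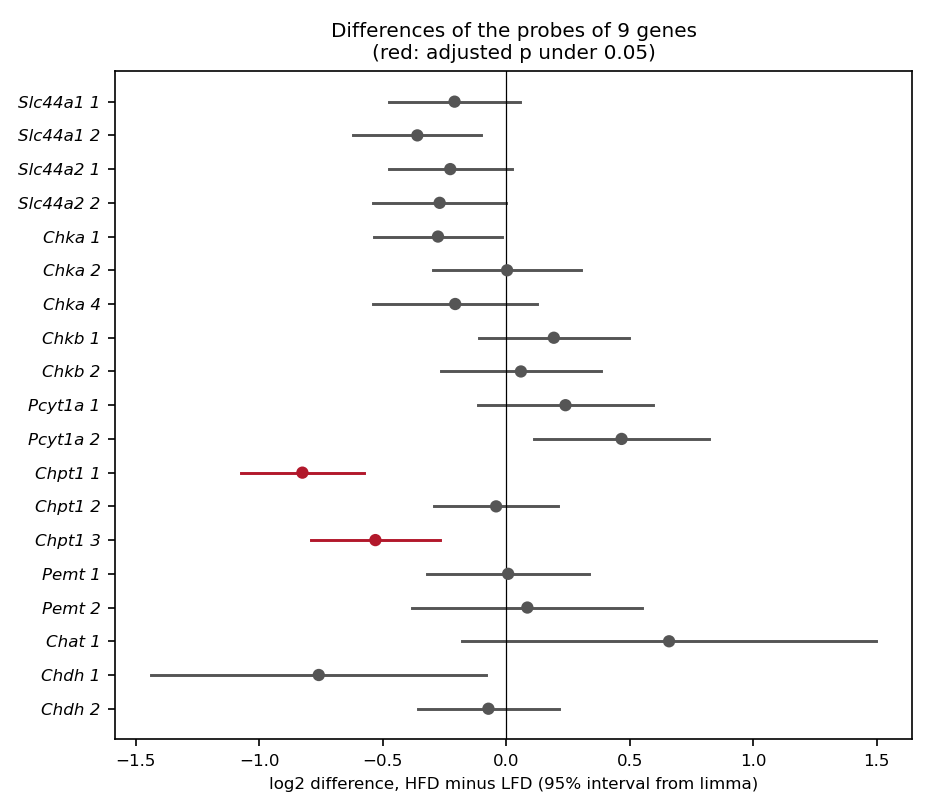
Log2 difference, HFD minus LFD (x axis), of the 19 tested probes of the 9 genes other than Slc5a7 (y axis), with the 95% interval from limma; red marks an adjusted p under 0.05. Of the 19 probes, 2 are marked, both of Chpt1 at -0.82 and -0.53, and the third Chpt1 probe lies at -0.041.

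The widely expressed transporters Slc44a1 and Slc44a2 showed small differences in the downward direction that did not pass the test. The brighter Slc44a1 probe read 0.95 and 0.85 on LFD and 0.71 and 0.68 on HFD, a difference of -0.21 (95% interval -0.47 to 0.055, limma adjusted p = 0.211). The other Slc44a1 probe, at another position of the gene, gave -0.36 (-0.62 to -0.10, limma adjusted p = 0.0851); eBayes with trend and robust options called it lower (adjusted p = 0.0381). Both Slc44a2 probes, whose positions overlap and which are therefore not separate evidence, gave -0.23 and -0.27 (limma adjusted p = 0.172 and 0.147). The intervals for Slc44a1 and Slc44a2 reach down to -0.62 and end at 0.055 or below.

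Chpt1, the last enzyme of the choline route to phosphatidylcholine, was lower on HFD by 1.77-fold at its brightest probe. That probe read 5.11 and 5.10 on LFD and 4.26 and 4.30 on HFD, with no overlap, a difference of -0.82 (SE 0.091, 95% interval -1.07 to -0.58, limma adjusted p = 0.0227). The most 3′ of the 3 probes (A_52_P78770, chr10:87936834-87936893) read 1.95 and 2.02 on LFD and 1.49 and 1.42 on HFD, 1.44-fold lower, a difference of -0.53 (SE 0.096, limma adjusted p = 0.0454). The probe between them (A_51_P240857, chr10:87937976-87938035) read 3.16 and 3.20 on LFD and 3.16 and 3.12 on HFD, and its diets overlapped (difference -0.041, 95% interval -0.29 to 0.21, limma adjusted p = 0.778).

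The Chpt1 probes thus gave unequal differences. The uncalled probe lies 13.2 kb from the brightest one in the genome and 1.14 kb from the other called one. Within each array the brightest probe stood above the uncalled one by 1.96 and 1.89 on LFD and by 1.09 and 1.19 on HFD. The 3 probes carry the same transcript name, and which transcript forms each of them reads was not tested. The difference between the probes was not tested. The call of Chpt1 was lost when any 1 of the 4 arrays was left out (limma adjusted p from 0.0532 to 0.133 at the brightest probe, with differences of -0.85 to -0.80), and with the mean of its 3 probes (-0.46, limma adjusted p = 0.0519).

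The earlier enzymes of the choline route did not pass the test. Chka, a choline kinase, had a difference of -0.28 at its brightest probe (95% interval -0.54 to -0.015, limma adjusted p = 0.134), and of 0.0039 and -0.21 at its other tested probes, whose signs turned with median scaling or normexp; its 4th probe was not well above background on any array. Chkb, the other kinase, had differences of 0.19 and 0.060 at exon-junction probes (limma adjusted p = 0.287 and 0.746), the latter turning below 0 with median scaling and normexp. Pcyt1a, which catalyses the regulated step, read higher on HFD at both probes. Its exon-junction probe, shown above, read -1.59 and -1.32 on LFD and -1.01 and -0.97 on HFD, a difference of 0.47 (95% interval 0.11 to 0.82, limma adjusted p = 0.0935), without overlap. Its brighter probe differed by 0.24 (limma adjusted p = 0.263).

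Pemt, the enzyme of the phosphatidylethanolamine route, had the smallest difference of the 9 genes by brightest probe, and its sign turned with median scaling. Its probes gave 0.0082 (95% interval -0.32 to 0.34, limma adjusted p = 0.968) and 0.086 (-0.38 to 0.55, limma adjusted p = 0.745), and on both the HFD arrays lay between the LFD arrays.

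Chat, which makes acetylcholine from the choline that Slc5a7 carries in, was dim in both diets. Its brighter probe read -3.86 and -3.13 on LFD and -3.06 and -2.61 on HFD, a difference of 0.66 whose 95% interval ran from -0.18 to 1.50 (limma adjusted p = 0.212). The exon-junction probe shown above was not well above background on any array, with readings of -5.27 and -5.10 on LFD and -4.57 and -4.40 on HFD, so no test was made on it. The vesicular acetylcholine transporter Slc18a3, which loads acetylcholine into vesicles, was well above background on 1 of the 4 arrays, LFD replicate 2. It read -5.13 and -4.18 on LFD and -4.39 and -4.41 on HFD and was not tested.

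Chdh, the oxidising enzyme, read -1.25 and -1.73 on LFD and -2.01 and -2.49 on HFD at its brighter probe, without overlap. The difference of -0.76 (95% interval -1.44 to -0.081) did not pass after adjustment over all probes (limma adjusted p = 0.122). A second Chdh probe, 2.08 kb away, gave -0.072 with overlapping diets (95% interval -0.36 to 0.21, limma adjusted p = 0.655). The intervals of these probes overlap, the probes carry different transcript names, and the difference between them was not tested.

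Other genes of choline metabolism were taken from 5 lists of 78 genes by function, of which 53 were tested. Of these, 6 were called lower on HFD (11.3%, beside 5.61% of all genes) and 0 higher. At an unadjusted p under 0.05 in limma, 10 were lower and 9 higher, beside 6188 of all 17736 genes in either direction. The median difference over the 53 was 0.040, beside 0.021 for all genes. The lists were chosen with earlier results known, and their counts are a description.

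**Figure D4:**
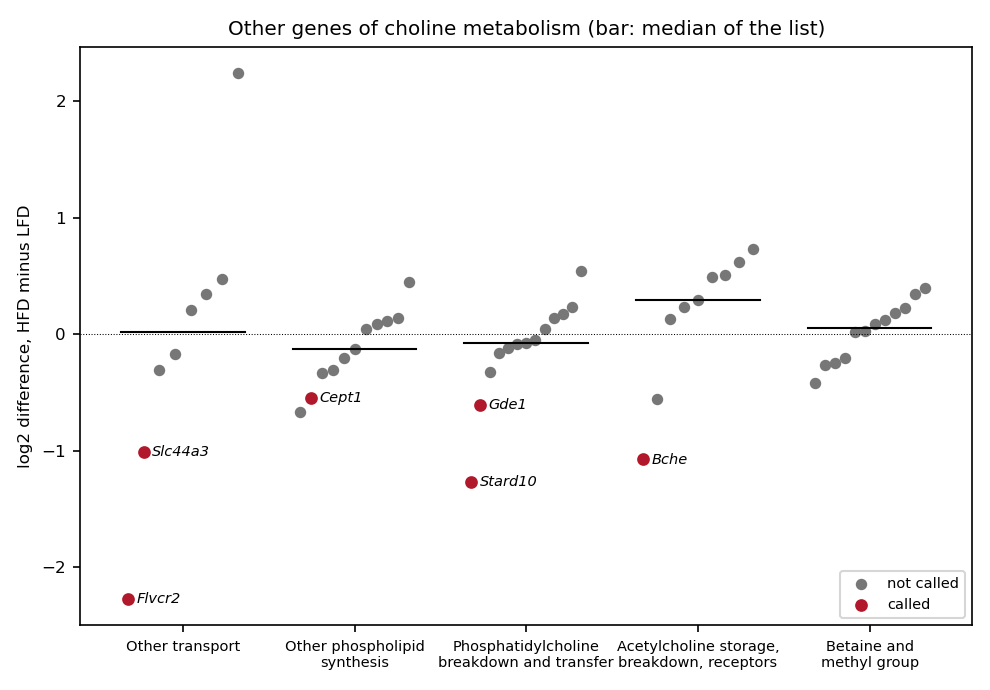
Log2 difference, HFD minus LFD (y axis), of the 53 tested genes of 5 lists of choline metabolism (x axis), 1 point per gene by its brightest probe, with red for an adjusted p under 0.05 and a bar at the median of each list. The 6 called genes all lie below 0, from -0.55 for Cept1 to -2.27 for Flvcr2. The uncalled point at 2.24 is Slc22a2, which was not well above background on LFD replicate 1.

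Among other carriers of choline and related cations, 8 of 10 were tested and 2 were called lower. Flvcr2, a choline carrier also studied in haem transport, read -0.91 and -1.23 on LFD and -3.11 and -3.57 on HFD, a difference of -2.27 (limma adjusted p = 0.0183), though it was not well above background on HFD replicate 2. Slc44a3, a relative of Slc44a1, fell by 1.01 (limma adjusted p = 0.0264), from -0.62 and -0.49 on LFD to -1.68 and -1.45 on HFD. Flvcr1, a choline carrier of the same family as Flvcr2, had a difference of 0.47 that did not pass (limma adjusted p = 0.0806). The organic cation transporter Slc22a2 read -4.66 and -3.25 on LFD and -1.72 and -1.71 on HFD, and its difference of 2.24 did not pass either (limma adjusted p = 0.0631). It was not well above background on LFD replicate 1. Slc44a4 and Slc44a5 were not well above background on any array. The list's median was 0.018.

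Of the other genes that make phosphatidylcholine and phosphatidylethanolamine, 11 of 13 were tested and 1 was called. Cept1, which catalyses the same last step as Chpt1 and also acts on ethanolamine, read 2.60 and 2.58 on LFD and 2.03 and 2.05 on HFD, 1.46-fold lower, a difference of -0.55 (SE 0.090, limma adjusted p = 0.0397). Pcyt2, the ethanolamine counterpart of Pcyt1a, had a difference of -0.31 and the remodelling acyltransferase Lpcat3 one of 0.089, and neither passed. Larger differences that did not pass either were 0.45 for Lpcat2 and -0.67 for Etnk2 (limma adjusted p = 0.0967 and 0.125). The median of the list was -0.13.

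Of 14 genes of phosphatidylcholine breakdown and transfer 13 were tested and 2 were called lower. Stard10, a phospholipid transfer protein, read 0.87 and 1.01 on LFD and -0.49 and -0.18 on HFD, a difference of -1.27 (limma adjusted p = 0.0239). Gde1, a glycerophosphodiesterase, differed by -0.61 (limma adjusted p = 0.0476). The median of the list was -0.079.

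In the list for acetylcholine storage, breakdown and receptors, 9 of 27 genes were tested. Bche, the butyrylcholinesterase that splits acetylcholine and other choline esters, read -1.41 and -1.35 on LFD and -2.37 and -2.54 on HFD, 2.11-fold lower (difference -1.07, limma adjusted p = 0.0208). Ache, the main acetylcholinesterase, differed by 0.50 and did not pass (limma adjusted p = 0.121). Of the 21 acetylcholine receptor genes, 6 were tested and 0 were called, the lowest limma adjusted p being 0.0985 and 2 having an unadjusted p under 0.05, near the share of all genes; 8 were not well above background on any array. The median of the 9 tested genes was 0.29. Most of them were dim, and without the filter on dim probes the median difference of all probes was 0.19. In the betaine and methyl group list, where Chdh feeds in, 12 of 14 genes were tested, with differences from -0.42 to 0.40, a median of 0.055 and no call (lowest limma adjusted p = 0.0666; unadjusted p under 0.05 for 2 genes, 1 each way). With eBayes trend and robust options 1 gene of this list was called higher and 1 lower, and with probes well above background on all 4 arrays 1 was called higher.

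The 6 lower calls in these lists depended on having all 4 arrays: of the 4 fits with an array left out, the carrier list had 1 gene called lower in the fit without LFD replicate 2 and 0 in the others, and the other lists had 0 in each. Without the filter on dim probes 0 of the 6 lower calls were made, and with the replicate number as a block there were 2. HFD replicate 1 and HFD replicate 2 mattered most, as the calls over all probes fell from 1415 higher and 1373 lower to 12 and 9 without the former and to 9 and 10 without the latter.

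Markers of cells that could carry these transcripts moved in several directions. Over all tested genes, 5.75% were called higher and 5.61% lower. Of cholinergic neuron markers, Slc18a3 was at or near background and Chat was dim, as given above, and Isl1 was called lower (-2.16, limma adjusted p = 0.0217). Pan-neuronal markers had 7 of 12 tested, with Elavl3 higher and Uchl1 lower and a median difference of 0.026. They summed to 3.87 and 4.04 on LFD and 2.52 and 2.75 on HFD, and without Uchl1 to 0.92 and 1.08 on LFD and 1.11 and 1.23 on HFD. Sympathetic markers had 5 of 6 tested, with Dbh and Npy higher and Slc6a2 lower, and summed signals of 0.59 to 0.67 on LFD and 0.52 on both HFD arrays. Tuft cells also use acetylcholine; of 5 markers 3 were tested and 1, Gfi1b, was higher, with sums of 0.54 and 0.49 on LFD and 0.85 and 0.90 on HFD. T cell markers had 5 of 6 tested and 0 called, with summed signals of 3.64 and 0.99 on LFD, which were far apart, and 1.26 and 2.13 on HFD.

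Beside the calls below stand 5.75% of all tested genes called higher and 5.61% called lower. Of 7 macrophage markers 5 were called higher, among them Cd68 (2.28) and Adgre1 (1.65). Their sum went from 157 to 173 on LFD to 242 to 256 on HFD. Mesothelial markers were lower in 5 of 5, with sums of 19.5 and 20.8 on LFD and 8.69 and 6.84 on HFD. Urothelial markers were lower in 3 of 4, with sums of 4.44 and 4.48 on LFD and 0.95 and 0.81 on HFD. Of 8 mammary epithelial markers 6 were tested and 3 keratins were lower, with sums of 10.97 and 11.1 on LFD and 2.45 and 2.22 on HFD. Skeletal muscle markers had 0 of 5 called, with sums of 1.90 to 3.18 on LFD and 2.91 to 3.60 on HFD. The part of these cell types in the differences of Slc5a7, Chpt1, Slc44a3, Flvcr2, Stard10 and Bche was not tested.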

How the data were processed

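Feature Extraction, version 11.5.1.1 per the submitters' processing notes and 11.0.1.1 per the file headers, gave spot intensities that the authors deposited as linear, background-subtracted and detrended signals of 4 one-colour arrays on 1 slide in 1 scan. The deposited value table holds each processed signal as a ratio to its array's 75th percentile (column medians 0.129, 0.137, 0.140 and 0.142, uncentred, same direction). Arrays received 500 ng of RNA, per the labels.

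From these, log2 signal was taken relative to the 75th percentile of the same array, without the 60 to 115 spots per array that carried an outlier flag, and averaged per probe. Tests covered probes that were well above background on the 2 arrays of a diet, and ran with limma 3.58.1 in R 4.3.3 (lmFit, eBayes, two-sided, Benjamini-Hochberg over 26054 probes, threshold 0.05, residual degrees of freedom 2, prior 2.24). A gene is given by its brightest tested probe, and named through RefSeq accessions (27668 probes matched). Where neither array of a diet measured a probe, the bound sets in, per array, the dimmest signal called well above background, or the probe's own if higher. The number of arrays limits the precision. Each list's named genes are those called, up to 4 of smallest p, and members are all named; other genes with values were named after their values were seen. Members, lists and the rule were chosen with earlier results of these data known. Probe coordinates are mm9, from the files; no annotation of that build was used. The procedure was tested on simulated data. Some marker results are not reported here.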

Additional observations from a re-analysis of the deposited data

How the results depend on the processing

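Slc5a7 kept a positive difference under every alternative that gave one. The gene was chosen on this difference and the alternatives use the same arrays, so the sign is no separate evidence. It was 4.45 with normexp and an offset of 50, 7.44 with quantile normalisation and 7.60 to 8.08 with an array left out; requiring probes well above background on all 4 arrays left it no value. Probes called higher and lower over the whole array numbered 2249 and 1577 with normexp, 2241 and 1782 with that stricter filter, 2485 and 2419 with eBayes trend and robust options, 1353 and 1723 with quantile normalisation, 1178 and 1867 with median scaling, and 0 and 0 without a filter (limma; 8107 probes at an unadjusted p under 0.05). Leaving out an array gave 9 to 635 higher and 9 to 422 lower. With the replicate number as a block they were 286 and 267. Same-numbered arrays did not deviate together (r = -0.0046), but this correlation cannot show whether they share a pool or a batch. The 1 of 9 genes called lower became 0 under that block, without a filter, with the mean of a gene's probes and in each fit with an array left out. Calls of genes higher stayed at 0 of 9.

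Sign changes were limited to probes with small differences. Normexp gave 0.10 for the second Chdh probe, -0.021 and 0.11 for Chka (A_51_P142923 and A_52_P420045) and -0.0052 for Chkb (A_51_P159771). Median scaling gave -0.084 for Chka, -0.028 for Chkb and -0.080 and -0.0020 for Pemt. With an array left out, Pemt ranged from -0.11 to 0.12 and from -0.13 to 0.30, Chka (A_51_P142923) from -0.080 to 0.088 and Chkb (A_51_P159771) from -0.056 to 0.18. The list of other carriers had 2 genes called higher with normexp, 1 with quantile normalisation, 1 with trend and robust options and 1 without either LFD array, against 0. The cause was not tested. The slide could not be a block, as all arrays shared 1. Keeping flagged spots and using the value table changed no count given here for the 9 genes or the lists, and updated symbols found the same 22 probes of the 10 genes. Chat, Slc18a3 and most receptors lay near background, where differences have little precision. Dim probes also tended to read higher on HFD. The median difference of all probes was 0.19 without the filter on dim probes, against 0.016 with it. Negative control spots read 73.9 and 95.6 on LFD and 106.3 and 116 on HFD. Positive differences of dim genes were not set against those of equally dim probes.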
